A study of Homo sapiens with 12 samples.

Results

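The 38 genes described here belong to the ATF4 branch of the integrated stress response and to the supply of amino acids: 12 stress regulators, 9 enzymes of amino acid and one-carbon metabolism, 6 amino acid transporters, and 11 genes of tRNA charging and tRNA export. They were taken by symbol, as the name that each transcript of the deposited tables carries for its gene, and each of the 38 symbols matched 1 gene identifier of the 58288 in the tables. The 12 RNA-seq libraries come from HEK-293T, a human embryonic kidney line with the large T antigen of SV40. Every library came from cells with a CIRTS protein, a programmable RNA-targeting effector that a guide RNA directs to a transcript and that is assembled from human protein parts. The 4 groups of 3 libraries were CIRTS-3 YTHDF2 with a guide to SMARCA4 (YTHDF2-SMARCA4), CIRTS-3 YTHDF2 with a non-targeting guide (YTHDF2-NT), CIRTS-12 Nuclease with a guide to SMARCA4 (nuclease-SMARCA4) and CIRTS-12 Nuclease with a non-targeting guide (nuclease-NT). YTHDF2 is a protein that binds N6-methyladenosine in mRNA and leads the mRNA to decay, and SMARCA4 encodes an ATPase of the BAF chromatin remodelling complex. The labels give neither the domains of each construct nor its dose, nor the time after its delivery, and cells without an effector were not analysed here. The design text calls the 3 libraries of a group biological replicates without saying how the cultures were kept apart, so the p-values measure the spread between these libraries.

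In the integrated stress response, kinases that sense lack of amino acids, unfolded proteins in the endoplasmic reticulum, double-stranded RNA or lack of haem phosphorylate the translation factor eIF2. Translation falls in general, while the mRNA of the transcription factor ATF4 is translated better. ATF4 then pairs with other leucine zipper proteins, among them CEBPB, CEBPG and DDIT3 (CHOP), and switches on genes that make amino acids, import them and load them onto tRNA. Because the control of ATF4 lies largely in translation, its mRNA level is only a partial readout of its activity, and its target mRNAs are the usual readout.

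ATF4 with a C/EBP partner binds a composite DNA element, read here as TGATGNAA on either strand, and the promoters of the genes show how widely the group shares it. RefSeq promoter windows (GRCh38.p14, 250 bases before to 50 after a transcript start) were matched for 34 of the 38 genes. Of the 34, 13 held the element in any of their windows, against 4.46% of 27305 genes with a window. Counted by window, 13 of 53 windows (24.5%) held it, against 3.62% of 35116. SLC1A5 matched only in the window of a start inside the gene. The element stood in 7 of 11 tRNA genes, 3 of 5 transporter genes with a window, 2 of 12 stress regulators and 1 of 6 enzyme genes with a window. The palindrome TGACGTCA, the cyclic AMP response element, stood in the window of PPP1R15A and in no other of the 34, against 2.25% of all genes with a window, and that window holds no TGATGNAA. A match is a match of letters only, and its absence says only that these letters are not in this window. The promoter of ASNS is printed whole because its match, at -68 to -61 from the start, lies in what is known in human cells as the nutrient-sensing response element of this gene, and that of PCK2 because PCK2 came nearest to the threshold of the test; its window holds neither motif. For the other 12 genes with a match, a stretch of up to 30 bases around it is given, to show the shared letters. All are written 5′ to 3′ on the strand named, with TGATGNAA in capitals.
ASNS, chr7:97872359-97872658, minus strand: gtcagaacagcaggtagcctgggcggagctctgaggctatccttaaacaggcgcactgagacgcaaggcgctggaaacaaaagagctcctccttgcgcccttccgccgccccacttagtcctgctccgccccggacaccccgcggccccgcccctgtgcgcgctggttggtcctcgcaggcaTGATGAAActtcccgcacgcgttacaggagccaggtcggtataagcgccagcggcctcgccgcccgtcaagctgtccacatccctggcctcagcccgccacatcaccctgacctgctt
PCK2, chr14:24094061-24094360, plus strand: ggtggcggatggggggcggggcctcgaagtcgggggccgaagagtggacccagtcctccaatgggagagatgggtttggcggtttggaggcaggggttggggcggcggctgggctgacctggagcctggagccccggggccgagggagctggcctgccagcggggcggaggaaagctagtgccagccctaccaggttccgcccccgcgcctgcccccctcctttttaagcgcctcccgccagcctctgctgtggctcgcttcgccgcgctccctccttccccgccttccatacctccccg
AARS, chr16:70289675-70289704, plus strand: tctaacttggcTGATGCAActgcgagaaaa
CARS, chr11:3057407-3057436, plus strand: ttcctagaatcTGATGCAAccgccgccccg
GARS, chr7:30594834-30594863, minus strand: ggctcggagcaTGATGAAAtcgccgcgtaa
IARS, chr9:92293692-92293721, plus strand: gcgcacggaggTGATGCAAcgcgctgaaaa
MARS, chr12:57488053-57488082, minus strand: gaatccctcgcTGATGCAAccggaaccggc
NARS, chr18:57621804-57621833, minus strand: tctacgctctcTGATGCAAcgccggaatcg
TARS, chr5:33440956-33440985, minus strand: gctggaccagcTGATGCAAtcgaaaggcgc
SLC1A4, chr2:64989381-64989410, minus strand: ccggctggagaTGATGCAAacgggagccgc
SLC1A5, chr19:46784893-46784922, minus strand: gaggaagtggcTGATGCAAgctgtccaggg
SLC3A2, chr11:62881725-62881748, minus strand: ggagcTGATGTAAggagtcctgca
CEBPG, chr19:33374060-33374089, plus strand: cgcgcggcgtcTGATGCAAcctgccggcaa
CHAC1, chr15:40953251-40953280, minus strand: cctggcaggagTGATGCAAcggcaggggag

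The estimated counts summed to between 9207196 and 18047859 per library, the 38 genes held 0.772 to 0.867% of them, and all 38 were counted in every library. SMARCA4, the target of the guide, had 243, 210.2 and 221 CPM in the YTHDF2-SMARCA4 libraries and 302, 235 and 250.2 CPM in YTHDF2-NT. The nuclease libraries had 239, 250.03 and 219.6 CPM with the SMARCA4 guide and 225, 245 and 242 CPM with the NT guide. CPM is the count relative to the library total, after TMM scaling. The ranges of SMARCA4 under its own and the NT guide overlapped with both effectors (log2 fold change -0.22, SE 0.0947, adjusted p = 0.703 with YTHDF2, and log2 fold change -0.0085, SE 0.0948, adjusted p = 0.985 with nuclease), and the mRNA of the target therefore gives little check of the labels. Deviations from the mean of the 12 libraries followed transcript length most in YTHDF2-NT 1 and 2. Their Spearman rho across 16297 genes was -0.498 and 0.452, against -0.242 to 0.288 in the other 10 libraries (correlations across genes, which are not independent). All 9 HEK-293T-like markers passed the filter on low counts, with VIM at 629 to 769 CPM and NEFM at 144 to 287 CPM. The filter was also passed by 4 of 6 fibroblast, 3 of 5 epithelium, 1 of 5 blood and 0 of 4 liver markers. COL1A1, a fibroblast marker, had 8.62 to 12.8 CPM, above the HEK-293T-like PAX2 at 1.36 to 4.02 CPM. Passing the filter therefore does not by itself separate these cell types. HBB was at 0, PTPRC did not exceed 0.0584 CPM, and all 4 liver markers stayed under 1 CPM. A firefly luciferase reporter was also counted in every library. With nuclease it had 1812, 2478 and 3021 CPM with the SMARCA4 guide and 3410, 4171 and 4397 CPM with the NT guide, without overlap. With YTHDF2 it had 2996, 3764 and 3714 CPM and 4465, 3169 and 5092 CPM, which overlapped. Its relation to the 38 genes was not tested. The labels give no date, lane or plate, so a batch that follows the effector or the guide cannot be told apart from it.

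None of the 38 genes was called in any of the 5 comparisons at an adjusted p below 0.05 with edgeR's quasi-likelihood test over 16297 genes, all 38 having passed the filter on low counts. Few genes of any kind were called: 0.00614% of all genes tested for YTHDF2 against nuclease with the SMARCA4 guide, 0.0491% for YTHDF2 against nuclease with the NT guide, 0% for the SMARCA4 against the NT guide with YTHDF2, 0.00614% for the same guides with nuclease, and 0% for the difference of these guide effects. DESeq2's Wald test called 1 of the 38, PCK2, in the comparison of effectors with the SMARCA4 guide (adjusted p = 4.58e-05), where it called 0.859% of the genes it gave an adjusted p. It also called PCK2 in the difference of guide effects (adjusted p = 0.0257; 0.233% of genes). In the other 3 comparisons DESeq2 called none of the members that had an adjusted p. These were 31 with the NT guide (1.58% of genes called), 27 between guides with YTHDF2 (0.125%) and all 38 between guides with nuclease (1.01%); for the other 7 and 11 DESeq2 gave no adjusted p. At an unadjusted p below 0.05, 10 of the 38 genes passed for YTHDF2 against nuclease with the SMARCA4 guide, where 11.5% of all genes did. With the NT guide 3 of 38 passed (10.9% of all genes). The count was 7 of 38 between guides with YTHDF2 (6.82%), 5 of 38 between guides with nuclease (10.9%) and 5 of 38 for the difference of guide effects (11.1%). The 5 comparisons share groups of libraries, so they are not independent of each other.

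The direction of the 38 genes was uneven where the YTHDF2 effector was tested. Between the SMARCA4 and NT guides with YTHDF2, 31 of 38 log2 fold changes lay below 0 (median -0.12), where 51.8% of all genes did and their median was -0.0086. Without overlap between the groups, 9 of 38 were lower and 0 higher, against 4.98% and 4.29% of all genes. With nuclease the same guides left 23 of 38 above 0 (median 0.054; 49.9% of all genes above 0), 9 higher without overlap (12.8% of all genes) and 1 lower (12.2%). For YTHDF2 against nuclease, 27 of 38 lay below 0 with the SMARCA4 guide (median -0.082; 49.8% of all genes) and 30 of 38 above 0 with the NT guide (median 0.047; 51.3% of all genes). For the difference of guide effects 32 of 38 lay below 0 (median -0.14; 50.6% of all genes). Without overlap between the effectors, 9 were lower and 3 higher with the SMARCA4 guide, against 13.4% of all genes in each direction, and 2 lower and 1 higher with the NT guide, against 5.96% and 6.86%. These genes were measured in the same libraries, so 1 library can move many of them at once, and with 3 libraries against 3 an exact two-sided permutation test of a single gene cannot go below 0.1.

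**Figure D1:**
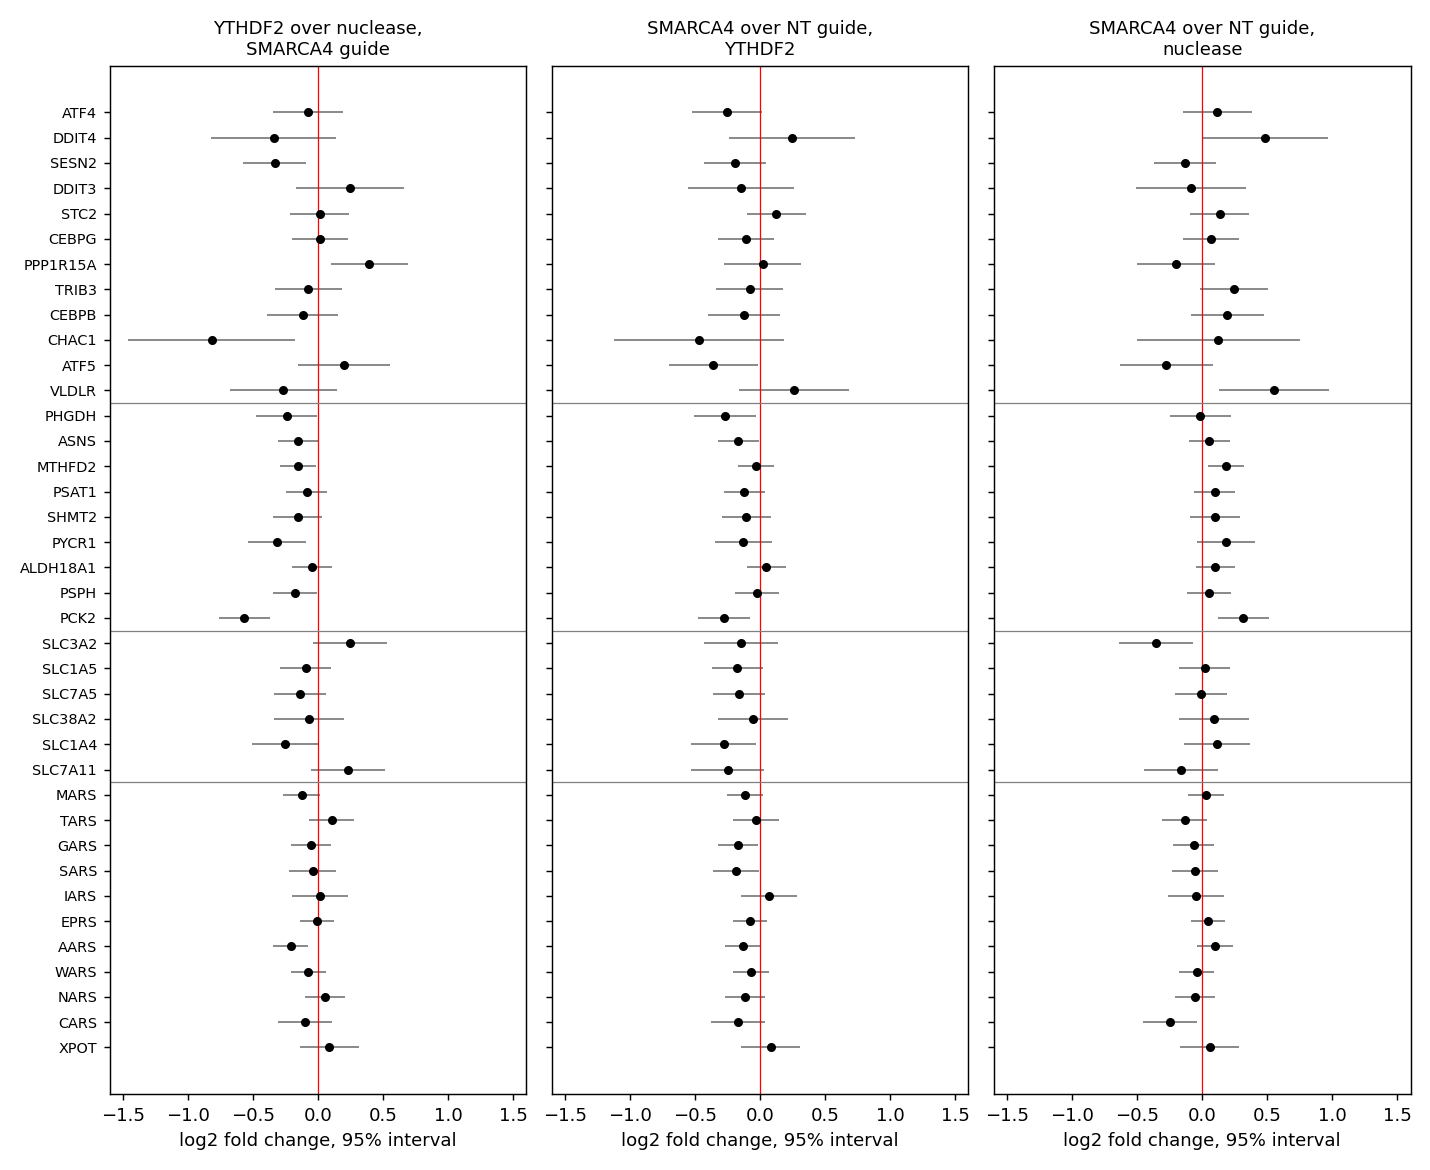
Log2 fold changes (points) with 95% intervals (lines) of the 38 genes for YTHDF2 over nuclease with the SMARCA4 guide (left), SMARCA4 over NT guide with YTHDF2 (middle) and SMARCA4 over NT guide with nuclease (right); grey lines divide stress regulators, enzymes, transporters and tRNA genes from top to bottom. PCK2 stands at -0.57 in the left panel, -0.28 in the middle and 0.31 on the right, and CHAC1 has the widest intervals.

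Per transcript length, ATF4 mRNA was the highest of the 38 in the deposited TPM values summed per gene, at 771 ± 54.7 TPM (SD over 12 libraries, range 648 to 865), with no overlap with the next gene. SLC3A2, the heavy chain shared by several amino acid exchangers, followed at 363 ± 60.1 TPM, and PHGDH, the entry enzyme of serine synthesis, at 345 ± 30.3 TPM. Much of the summed TPM of both lay in models not annotated as protein coding or in short ones. For SLC3A2 the 583-base processed transcript SLC3A2-209 held 39.8%, the 534-base SLC3A2-214 held 17.4%, and the 1904-base coding model SLC3A2-201 held 21.5%. For PHGDH the processed transcript PHGDH-230 held 30.7% and the coding model PHGDH-202 held 24.9%. EPRS, PSPH and TARS also had a noncoding or decay-marked model as the one with most TPM, so the ranks of these 5 genes rest in part on such models. The ranks of MARS and GARS may rest in part on short models as well. Their effective lengths, averaged over models by TPM, were 1134 and 1296 bases, the lowest of the tRNA genes. The lowest were VLDLR, a lipoprotein receptor, at 2.55 ± 0.669 TPM and SLC7A11, the cystine-glutamate exchanger, at 3.44 ± 0.658 TPM. Among stress regulators the order below ATF4 was DDIT4 (136 ± 36.8 TPM), SESN2 (48.3 ± 8.56), DDIT3 (38.5 ± 6.95), STC2 (35.5 ± 5.04), CEBPG (25.9 ± 3.49), PPP1R15A (24.1 ± 4.37), TRIB3 (16.5 ± 1.52), CEBPB (13.5 ± 1.40), CHAC1 (8.57 ± 2.72), ATF5 (7.25 ± 1.19) and VLDLR. Only the ranges of ATF4 and DDIT4, DDIT4 and SESN2, and ATF5 and VLDLR were apart among neighbours in that order. Among enzymes PHGDH led, followed by ASNS (240.1 ± 19.1 TPM), MTHFD2 (213 ± 22.4), PSAT1 (211 ± 20.0), SHMT2 (158 ± 9.68), PYCR1 (87.7 ± 10.1), ALDH18A1 (77.3 ± 9.17), PSPH (52.0 ± 8.88) and PCK2 (31.7 ± 4.20). PHGDH was apart from ASNS and SHMT2 from PYCR1, and the other neighbours overlapped. Transporters fell into separate levels, with SLC3A2 and SLC1A5 (170.3 ± 10.5 TPM) each apart from the next, SLC7A5 (45.1 ± 5.24) overlapping SLC38A2 (41.9 ± 6.79), and SLC1A4 (8.74 ± 1.09) apart from SLC38A2 above it and from SLC7A11 below it. The tRNA genes ran as a chain of overlapping ranges, MARS (311 ± 26.4 TPM), TARS (265 ± 25.7), GARS (261 ± 33.4), SARS (228 ± 15.4), IARS (185 ± 32.4) and EPRS (148 ± 9.84), then a gap to AARS (108 ± 10.6), WARS (90.7 ± 11.2), NARS (66.8 ± 12.4), CARS (59.7 ± 9.72) and XPOT (54.4 ± 10.5).

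**Figure D2:**
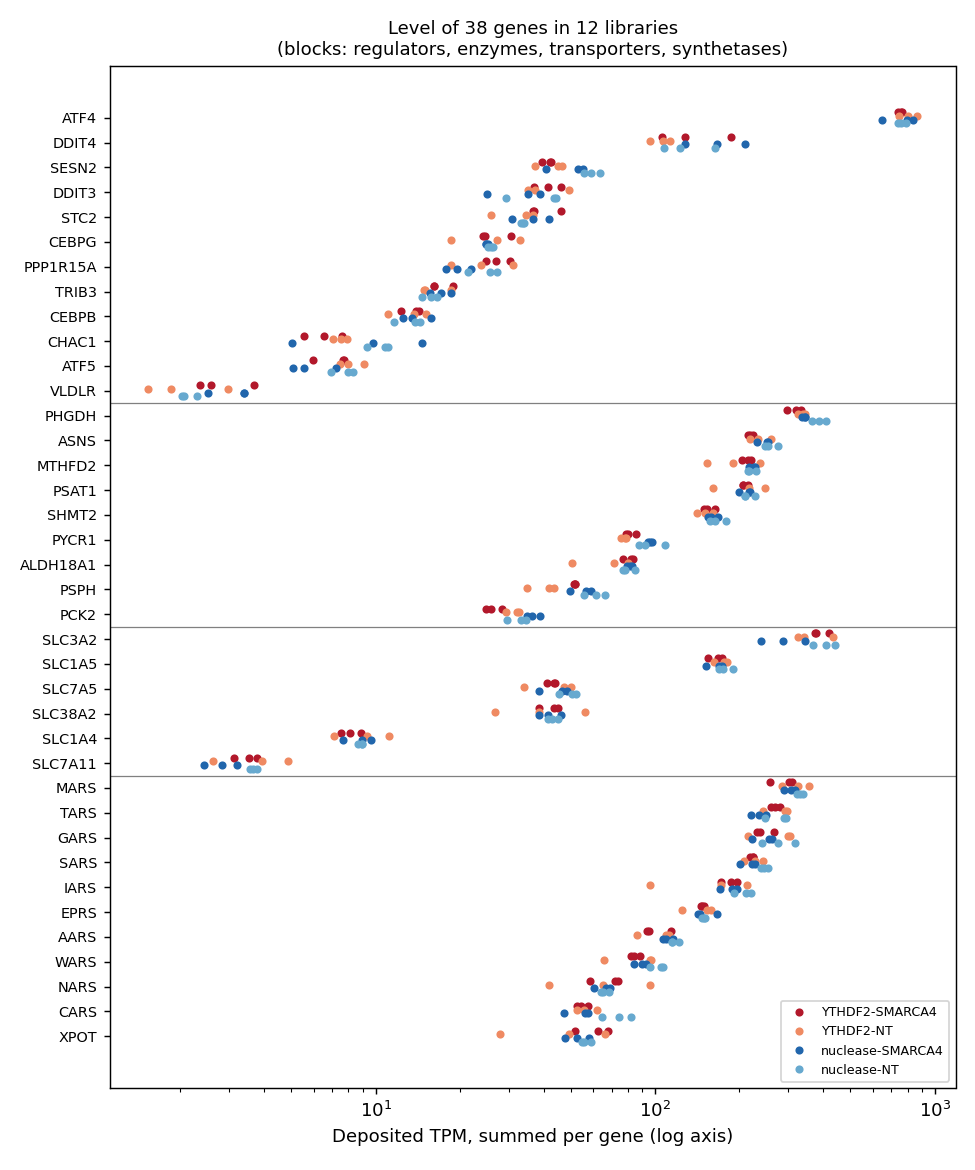
Deposited TPM of each of the 38 genes in each of 12 libraries (log axis), coloured by group and ordered by mean level within stress regulators, enzymes, transporters and tRNA genes. ATF4 lies at 648 to 865 TPM, above all others, and VLDLR at 1.54 to 3.67 TPM.

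Of the 12 stress regulators, 0 were called in each comparison. Their median log2 fold change was -0.075 for YTHDF2 against nuclease with the SMARCA4 guide, 0.18 with the NT guide, -0.12 between guides with YTHDF2 and 0.12 between guides with nuclease. ATF4 (ENSG00000128272.14, chr22:39519695-39522685, plus strand) had 842, 900.0 and 908 CPM in the YTHDF2-SMARCA4 libraries and 1217, 846 and 1096 CPM in YTHDF2-NT. Nuclease-SMARCA4 stood at 787, 1062 and 948 CPM and nuclease-NT at 865, 826 and 889 CPM. The highest CPM were those of YTHDF2-NT 1 and 3, while YTHDF2-NT 2 lay among the nuclease-NT libraries, and every pair of groups overlapped. In the deposited TPM the NT-guide groups lay closer, at 805 ± 59.1 TPM with YTHDF2 and 763 ± 26.1 TPM with nuclease. There nuclease-SMARCA4 2, at 835 TPM, exceeded YTHDF2-NT 1, at 804 TPM. In the counts, ATF4 with the NT guide differed between YTHDF2 and nuclease by 22.5% (95% interval 1.76% to 47.4%), log2 fold change 0.29, SE 0.124, adjusted p = 0.412. Between guides with YTHDF2 the change was -0.25 (SE 0.124, adjusted p = 0.703). Between guides with nuclease it was 0.12 (SE 0.124, adjusted p = 0.773), and the difference of these guide effects was -0.37 (SE 0.175, adjusted p = 0.456). With the SMARCA4 guide it was -0.078 (SE 0.124, adjusted p = 0.840) between effectors. Leaving out YTHDF2-NT 2 brought ATF4 past the threshold in 3 of these comparisons: 0.42 (adjusted p = 0.0200) between effectors with the NT guide, -0.38 (adjusted p = 0.0306) between guides with YTHDF2, and -0.50 (adjusted p = 0.0343) for the difference. That fit called 9.61%, 9.46% and 8.62% of all genes in these comparisons. Without nuclease-SMARCA4 2 its sign with the SMARCA4 guide turned, to 0.026.

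DDIT3, the transcription factor CHOP that acts in lasting stress, had 30.1, 28.3 and 26.1 CPM in the YTHDF2-SMARCA4 libraries and 32.1, 23.9 and 37.1 CPM in YTHDF2-NT. In nuclease-SMARCA4 there were 17.8, 26.5 and 26.8 CPM, and in nuclease-NT 19.1, 28.1 and 28.3 CPM. Its libraries spread widely within groups, and every pair of groups overlapped. None of its fold changes passed the threshold. Between effectors they were 0.25 (SE 0.192, adjusted p = 0.646) with the SMARCA4 guide and 0.31 (SE 0.193, adjusted p = 0.592) with the NT guide. Further values were -0.15 (SE 0.190, adjusted p = 0.850) between guides with YTHDF2, -0.086 (SE 0.195, adjusted p = 0.906) with nuclease, and -0.060 (SE 0.272, adjusted p = 0.946) for the difference of guide effects. The last 3 changed sign when single libraries were left out. DDIT3 lies on the minus strand of chr12 at 57516588-57521737 (GRCh38, GENCODE 29). It overlaps the end of MARS, on the plus strand at 57475445-57517569, and no source says whether strand was used in the quantification. Reads of the overlap therefore cannot be assigned with certainty.

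SESN2, sestrin 2, which holds back mTORC1 when leucine is short, had 117, 130.3 and 131 CPM with YTHDF2 and 129, 183 and 165 CPM with nuclease under the SMARCA4 guide. Under the NT guide it had 147, 132 and 154 CPM with YTHDF2 and 166, 184 and 173 CPM with nuclease. The NT-guide groups did not overlap, with all YTHDF2 libraries lower, whereas nuclease-SMARCA4 1 lay within the YTHDF2 range under the SMARCA4 guide. Its log2 fold changes were -0.33 (SE 0.111, adjusted p = 0.326) with the SMARCA4 guide and -0.27 (SE 0.111, adjusted p = 0.392) with the NT guide, the smallest p of the stress regulators in both comparisons of effectors. PPP1R15A, the subunit GADD34 that directs dephosphorylation of eIF2, had 60.1, 55.2 and 51.7 CPM with YTHDF2 and 37.9, 43.3 and 45.5 CPM with nuclease under the SMARCA4 guide, with no overlap between the groups and a fold change of 0.40 (SE 0.137, adjusted p = 0.332). It was the only stress regulator with a positive fold change and an unadjusted p below 0.05 in that comparison.

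CHAC1, an enzyme that degrades glutathione, was the most variable of the 38, with a within-group coefficient of variation of 34.5%. It had 7.99, 7.57 and 7.05 CPM in the YTHDF2-SMARCA4 libraries and 11.3, 9.31 and 10.6 CPM in YTHDF2-NT. With nuclease, 6.42, 20.7 and 12.5 CPM were found with the SMARCA4 guide and 13.4, 10.2 and 12.9 CPM with the NT guide. The 3 YTHDF2-SMARCA4 libraries lay close together, while the nuclease-SMARCA4 group held both the lowest and the highest of the 12 values. The fold change between effectors with the SMARCA4 guide was -0.82 (SE 0.297, adjusted p = 0.354), or -43.2% (95% interval -63.5% to -11.4%), and the exact permutation p was 0.4. VLDLR had 15.0, 14.4 and 10.9 CPM with the SMARCA4 guide and 9.41, 9.71 and 8.30 CPM with the NT guide under nuclease, without overlap, and its fold change of 0.55 (SE 0.196, adjusted p = 0.333) had the smallest p of the stress regulators between guides with nuclease. With YTHDF2 its guide groups overlapped, at 14.2, 9.27 and 10.4 CPM with the SMARCA4 guide and 9.80, 11.3 and 7.10 CPM with the NT guide. ATF5, a bZIP factor related to ATF4, had the smallest p of the group between guides with YTHDF2, at 10.3, 12.7 and 13.8 CPM with the SMARCA4 guide and 18.1, 12.6 and 16.7 CPM with the NT guide, groups that overlapped (log2 fold change -0.36, SE 0.159, adjusted p = 0.703).

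The remaining stress regulators are given by group means, each ± SD over 3 libraries. DDIT4, the mTORC1 inhibitor REDD1, averaged 204 ± 56.8 CPM in YTHDF2-SMARCA4 and 171 ± 35.5 CPM in YTHDF2-NT. For nuclease the SMARCA4-guide libraries had 257 ± 64.8 CPM and the NT-guide libraries 184 ± 38.3 CPM. Its within-group coefficient of variation was 24.7%, and its guide effect with nuclease was 0.48 (SE 0.224, adjusted p = 0.457). TRIB3, a pseudokinase that binds ATF4, averaged 36.8 ± 2.58 CPM in YTHDF2-SMARCA4 and 38.9 ± 6.89 CPM in YTHDF2-NT. Under nuclease the values were 38.7 ± 3.15 CPM in nuclease-SMARCA4 and 32.7 ± 1.87 CPM in nuclease-NT. The 3 nuclease-SMARCA4 libraries lay above the nuclease-NT libraries (log2 fold change 0.25, SE 0.122, adjusted p = 0.485). CEBPB, a C/EBP partner, averaged 22.4 ± 1.22 CPM in YTHDF2-SMARCA4 and 24.3 ± 2.76 CPM in YTHDF2-NT. The nuclease libraries had 24.2 ± 3.67 CPM with the SMARCA4 guide and 21.2 ± 2.49 CPM with the NT guide. CEBPG, the C/EBP partner that dimerises with ATF4, averaged 90.7 ± 9.68 CPM in YTHDF2-SMARCA4 and 97.6 ± 13.4 CPM in YTHDF2-NT. Nuclease-SMARCA4 stood at 89.5 ± 2.75 CPM and nuclease-NT at 85.5 ± 0.711 CPM. STC2, the secreted glycoprotein stanniocalcin 2, averaged 150.3 ± 13.5 CPM in YTHDF2-SMARCA4 and 138 ± 9.14 CPM in YTHDF2-NT. In nuclease-SMARCA4 there were 149 ± 17.2 CPM, and in nuclease-NT 136 ± 16.3 CPM. For CEBPB, CEBPG and STC2 the unadjusted p exceeded 0.05 in all 5 comparisons.

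Among the 9 enzymes the fold changes lay on one side in 2 comparisons, without any gene passing the threshold. With the SMARCA4 guide all 9 had a fold change below 0 for YTHDF2 against nuclease (median -0.16, range -0.57 to -0.044), and 0 were called. Of the 9, 6 were lower without overlap between the groups, against 13.4% of all genes, and 5 had an unadjusted p below 0.05, where 5.52% of all genes were lower at that p. With the NT guide 7 of 9 lay above 0, with a median of 0.029. Between guides, 8 of 9 lay below 0 with YTHDF2 (median -0.12) and 8 of 9 above 0 with nuclease (median 0.096), and for the difference of guide effects all 9 lay below 0 (median -0.22). The enzyme median of single libraries stood -0.12, -0.087 and -0.072 from the mean of 12 libraries on the log2 scale in YTHDF2-SMARCA4, against 0.0084, 0.19 and 0.047 in nuclease-SMARCA4, whose replicate 2 was the highest of the 12.

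PCK2, the mitochondrial phosphoenolpyruvate carboxykinase that turns oxaloacetate into phosphoenolpyruvate, came nearest to the threshold. PCK2 (ENSG00000100889.11, chr14:24094053-24110598, plus strand) had 48.1, 45.6 and 48.0 CPM in the YTHDF2-SMARCA4 libraries and 61.3, 54.0 and 56.7 CPM in YTHDF2-NT. With nuclease, 64.7, 78.1 and 66.9 CPM were found with the SMARCA4 guide and 60.8, 51.2 and 56.8 CPM with the NT guide. The 3 YTHDF2-SMARCA4 libraries were the lowest of the 12 and the 3 nuclease-SMARCA4 libraries the highest, and the NT-guide groups lay between them and overlapped each other. With the SMARCA4 guide the level with YTHDF2 differed from that with nuclease by -32.4% (95% interval -41.1% to -22.5%), log2 fold change -0.57, SE 0.0915, adjusted p = 0.0828, rank 6 of 16297 genes by p. The guides differed by -0.28 (SE 0.0920, adjusted p = 0.703) with YTHDF2 and by 0.31 (SE 0.0914, adjusted p = 0.232) with nuclease, with no overlap in either. The difference of the guide effects was -0.59 (SE 0.130, adjusted p = 0.222), rank 33. Between effectors with the NT guide its log2 fold change was 0.029 (SE 0.0920, adjusted p = 0.938). The exact permutation p was 0.1, the smallest that 3 against 3 allow, in the 3 comparisons without overlap. In the comparison of effectors with the SMARCA4 guide the fold change lay between -0.62 and -0.48 over 21 other settings, of which 8 brought it past the threshold. Among these were the fits without YTHDF2-NT 1 (adjusted p = 0.0149; 0.419% of all genes called) and without YTHDF2-NT 2 (adjusted p = 0.0240; 0.125% called). Those libraries are not in the comparison itself and bear on it through the shared estimate of the spread. The transcript models PCK2-216 and PCK2-201 held 54.3% and 32.6% of its TPM.

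The serine pathway enzymes PHGDH, PSAT1 and PSPH act in sequence. PHGDH had 391, 408 and 391 CPM in the YTHDF2-SMARCA4 libraries and 573, 387 and 476 CPM in YTHDF2-NT. For nuclease the SMARCA4-guide libraries had 443, 505 and 458 CPM and the NT-guide libraries 465, 468 and 488 CPM. Its YTHDF2-SMARCA4 values lay below the nuclease-SMARCA4 ones without overlap (log2 fold change -0.24, SE 0.110, adjusted p = 0.434), and the YTHDF2-NT libraries spread from below to above all others. PSAT1, the aminotransferase of the pathway, averaged 389.7 ± 14.1 CPM in YTHDF2-SMARCA4 and 424 ± 28.5 CPM in YTHDF2-NT. Under nuclease the values were 414 ± 25.9 CPM in nuclease-SMARCA4 and 387 ± 17.3 CPM in nuclease-NT. Its fold change with the NT guide, 0.13 (SE 0.0727, adjusted p = 0.534), had the smallest p of the enzymes there. PSPH, the phosphatase, averaged 56.9 ± 1.58 CPM in YTHDF2-SMARCA4 and 57.8 ± 1.82 CPM in YTHDF2-NT. The nuclease libraries had 64.2 ± 5.88 CPM with the SMARCA4 guide and 61.9 ± 3.13 CPM with the NT guide. The effectors did not overlap under the SMARCA4 guide (log2 fold change -0.17, SE 0.0781, adjusted p = 0.430). SHMT2, which makes glycine from serine in mitochondria, averaged 255 ± 1.6027 CPM in YTHDF2-SMARCA4 and 274 ± 34.1 CPM in YTHDF2-NT. Nuclease-SMARCA4 stood at 284 ± 19.9 CPM and nuclease-NT at 266 ± 14.8 CPM. MTHFD2, the mitochondrial one-carbon dehydrogenase, averaged 330.0 ± 2.73 CPM in YTHDF2-SMARCA4 and 337 ± 15.2 CPM in YTHDF2-NT. In nuclease-SMARCA4 there were 367 ± 20.1 CPM, and in nuclease-NT 323 ± 12.8 CPM. Its nuclease-SMARCA4 libraries lay above the nuclease-NT ones without overlap (log2 fold change 0.18, SE 0.0647, adjusted p = 0.333) and above the YTHDF2-SMARCA4 ones (log2 fold change -0.15, SE 0.0646, adjusted p = 0.406).

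ASNS, which makes asparagine and is a classical ATF4 target, had 300.4, 308 and 312 CPM with the SMARCA4 guide and 344, 326 and 363 CPM with the NT guide under YTHDF2, without overlap (log2 fold change -0.17, SE 0.0731, adjusted p = 0.703). Under nuclease it had 307, 365 and 348 CPM with the SMARCA4 guide and 323, 318 and 340.3 CPM with the NT guide, which overlapped, and the difference of guide effects was -0.22 (SE 0.103, adjusted p = 0.451). The processed pseudogene ASNSP1, at up to 16.9 CPM, may share reads with ASNS, so the count of ASNS is uncertain to that extent. Of 29 pseudogenes named after 12 of the genes, 3 others exceeded 1 CPM, namely SLC7A5P1, ATF4P4 and PSPHP1. ALDH18A1, which starts proline synthesis from glutamate, averaged 217 ± 10.1 CPM in YTHDF2-SMARCA4 and 210.2 ± 16.9 CPM in YTHDF2-NT. With nuclease, 224 ± 6.07 CPM were found with the SMARCA4 guide and 209 ± 5.81 CPM with the NT guide. PYCR1, which completes it in mitochondria, averaged 113 ± 5.22 CPM in YTHDF2-SMARCA4 and 123 ± 19.4 CPM in YTHDF2-NT. For nuclease the SMARCA4-guide libraries had 140.5 ± 9.36 CPM and the NT-guide libraries 124 ± 8.85 CPM. PYCR1 did not overlap between effectors with the SMARCA4 guide (log2 fold change -0.32, SE 0.103, adjusted p = 0.318), and ALDH18A1 showed no unadjusted p below 0.05 in any comparison.

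**Figure D3:**
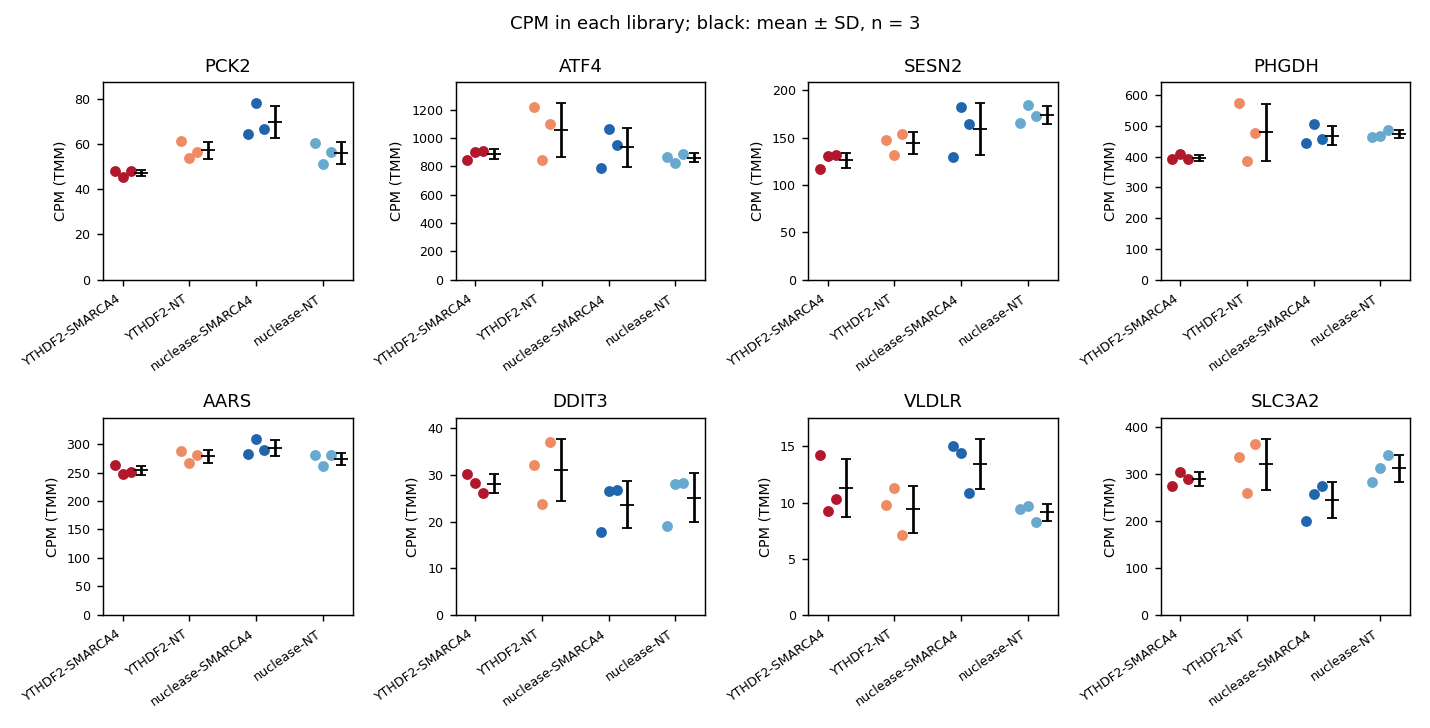
CPM of 8 genes in each library (points, by group) with the mean and SD of 3 libraries (black); each axis starts at 0. The YTHDF2-SMARCA4 values of PCK2, 48.1, 45.6 and 48.0 CPM, lie below those of every other group, and ATF4 is highest in YTHDF2-NT 1 and 3.

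Of the 6 transporters, 0 were called in each comparison. All 6 lay below 0 between guides with YTHDF2 (median -0.17) and all 6 above 0 between effectors with the NT guide (median 0.088); both comparisons contain the YTHDF2-NT libraries. With nuclease the guides left 3 of 6 above 0 (median 0.0029), and between effectors with the SMARCA4 guide 2 of 6 lay above 0 (median -0.081). SLC3A2 had 274, 305 and 288 CPM in the YTHDF2-SMARCA4 libraries and 336, 259 and 364 CPM in YTHDF2-NT. Under nuclease the values were 199.96, 257 and 273 CPM in nuclease-SMARCA4 and 283, 313 and 339.6 CPM in nuclease-NT. The nuclease-SMARCA4 libraries were below all nuclease-NT libraries, with replicate 1 the lowest, and the YTHDF2 groups overlapped. Its guide effect with nuclease was -21.9% (95% interval -35.8% to -5.02%), log2 fold change -0.36, SE 0.131, adjusted p = 0.350. SLC1A4, which carries alanine, serine and cysteine, had 29.5, 27.3 and 28.5 CPM in the YTHDF2-SMARCA4 libraries and 31.8, 34.9 and 36.8 CPM in YTHDF2-NT. The nuclease libraries had 29.3, 39.2 and 33.0 CPM with the SMARCA4 guide and 27.2, 32.8 and 34.1 CPM with the NT guide. Its YTHDF2-SMARCA4 libraries lay below the YTHDF2-NT ones without overlap (log2 fold change -0.28, SE 0.117, adjusted p = 0.703) and overlapped nuclease-SMARCA4 (log2 fold change -0.25, SE 0.116, adjusted p = 0.436), and the difference of guide effects was -0.39 (SE 0.165, adjusted p = 0.426).

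SLC7A11 had 32.3, 31.2 and 28.2 CPM in the YTHDF2-SMARCA4 libraries and 30.1, 41.3 and 37.5 CPM in YTHDF2-NT. Nuclease-SMARCA4 stood at 22.2, 27.2 and 28.7 CPM and nuclease-NT at 31.4, 29.9 and 25.9 CPM. YTHDF2-NT 2 and 3 were the highest of the 12 and nuclease-SMARCA4 1 the lowest, and the effectors overlapped under the NT guide (log2 fold change 0.32, SE 0.131, adjusted p = 0.398). SLC7A5, the light chain that with SLC3A2 imports large neutral amino acids, averaged 156 ± 3.35 CPM in YTHDF2-SMARCA4 and 175 ± 14.2 CPM in YTHDF2-NT. In nuclease-SMARCA4 there were 172 ± 21.4 CPM, and in nuclease-NT 173 ± 10.5 CPM. SLC1A5, a glutamine exchanger, averaged 288 ± 9.34 CPM in YTHDF2-SMARCA4 and 325 ± 41.9 CPM in YTHDF2-NT. With nuclease, 307 ± 24.0 CPM were found with the SMARCA4 guide and 303 ± 14.5 CPM with the NT guide. SLC38A2, the sodium-coupled carrier SNAT2 that responds to lack of amino acids, averaged 183 ± 10.004 CPM in YTHDF2-SMARCA4 and 189.7 ± 42.0 CPM in YTHDF2-NT. For nuclease the SMARCA4-guide libraries had 192 ± 16.4 CPM and the NT-guide libraries 179.9 ± 8.91 CPM. For SLC7A5, SLC1A5 and SLC38A2 the unadjusted p exceeded 0.05 in all 5 comparisons. SLC7A5 and its partner SLC3A2 had guide effects with nuclease of -0.013 and -0.36, and the difference between the genes was not tested.

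Of the 10 tRNA synthetases and XPOT, the exporter of tRNA from the nucleus, 0 were called in each comparison, and EPRS had the lowest within-group coefficient of variation of the 38 at 3.31%. Their median log2 fold change was -0.041 between effectors with the SMARCA4 guide, 0.023 with the NT guide, -0.12 between guides with YTHDF2 and -0.049 between guides with nuclease. Between guides with YTHDF2, 9 of 11 lay below 0, 4 of them without overlap, against 51.8% and 4.98% of all genes. AARS, alanyl-tRNA synthetase, had 263, 248 and 251 CPM in the YTHDF2-SMARCA4 libraries and 289, 267 and 280.0 CPM in YTHDF2-NT. Under nuclease the values were 282, 309 and 289 CPM in nuclease-SMARCA4 and 280.1, 262 and 280.1 CPM in nuclease-NT. The YTHDF2-SMARCA4 libraries were the lowest in mean, below all nuclease-SMARCA4 and YTHDF2-NT libraries, and the nuclease-SMARCA4 libraries lay above the nuclease-NT ones. It differed by -13.5% (95% interval -21.4% to -4.86%) between effectors with the SMARCA4 guide, log2 fold change -0.21, SE 0.0639, adjusted p = 0.29997, and by -0.23 (SE 0.0904, adjusted p = 0.412) for the difference of guide effects. In the fit of the 6 SMARCA4-guide libraries alone AARS passed the threshold (adjusted p = 0.0402), as did 4.25% of all genes.

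CARS, cysteinyl-tRNA synthetase, had 99.2, 123 and 114 CPM with the SMARCA4 guide and 119, 132 and 148 CPM with the NT guide under nuclease, groups that overlapped (log2 fold change -0.25, SE 0.0963, adjusted p = 0.375). GARS, glycyl-tRNA synthetase, had 308, 299 and 304 CPM with the SMARCA4 guide and 339, 322 and 365 CPM with the NT guide under YTHDF2, without overlap (log2 fold change -0.17, SE 0.0726, adjusted p = 0.703). EPRS, the glutamyl-prolyl enzyme, had 385, 388 and 359.6 CPM with YTHDF2 and 352, 343 and 349 CPM with nuclease under the NT guide, also without overlap (log2 fold change 0.12, SE 0.0607, adjusted p = 0.517). These were the smallest p values of the tRNA genes in their comparisons, and none passed the threshold. SARS, the seryl enzyme, averaged 335 ± 5.02 CPM in YTHDF2-SMARCA4 and 380.4 ± 42.2 CPM in YTHDF2-NT. The nuclease libraries had 345 ± 24.9 CPM with the SMARCA4 guide and 358 ± 10.1 CPM with the NT guide. MARS, the methionyl enzyme whose gene overlaps DDIT3, averaged 318 ± 10.6 CPM in YTHDF2-SMARCA4 and 345 ± 18.9 CPM in YTHDF2-NT. Nuclease-SMARCA4 stood at 347 ± 17.8 CPM and nuclease-NT at 340.2 ± 4.06 CPM. IARS, the isoleucyl enzyme, averaged 498 ± 13.7 CPM in YTHDF2-SMARCA4 and 476 ± 82.0 CPM in YTHDF2-NT. In nuclease-SMARCA4 there were 492 ± 11.7 CPM, and in nuclease-NT 509 ± 23.9 CPM. Its lowest and its highest value were both in the YTHDF2-NT group. TARS, the threonyl enzyme, averaged 395 ± 6.64 CPM in YTHDF2-SMARCA4 and 403 ± 32.8 CPM in YTHDF2-NT. With nuclease, 367 ± 19.5 CPM were found with the SMARCA4 guide and 403 ± 36.3 CPM with the NT guide. NARS, the asparaginyl enzyme, averaged 146 ± 0.138 CPM in YTHDF2-SMARCA4 and 158 ± 10.9 CPM in YTHDF2-NT. For nuclease the SMARCA4-guide libraries had 141 ± 8.89 CPM and the NT-guide libraries 146 ± 4.26 CPM. WARS, the tryptophanyl enzyme, averaged 157 ± 2.29 CPM in YTHDF2-SMARCA4 and 165 ± 7.91 CPM in YTHDF2-NT. Under nuclease the values were 165 ± 2.42 CPM in nuclease-SMARCA4 and 170.2 ± 8.60 CPM in nuclease-NT. XPOT averaged 274 ± 16.1 CPM in YTHDF2-SMARCA4 and 259 ± 48.4 CPM in YTHDF2-NT. The nuclease libraries had 258 ± 4.90 CPM with the SMARCA4 guide and 248 ± 5.57 CPM with the NT guide. SARS passed an unadjusted p of 0.05 in 1 comparison, between guides with YTHDF2 (log2 fold change -0.18, SE 0.0824, adjusted p = 0.703), and the other 6 of these in none.

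Library by library, the 38 genes moved together to a limited extent. Their median deviation from the mean of 12 libraries, on the log2(CPM + 0.5) scale, was -0.067, -0.042 and -0.066 in YTHDF2-SMARCA4, with 15, 9 and 5 of 38 genes above the mean. In YTHDF2-NT it was 0.056, -0.037 and 0.11, with 20, 14 and 29 of 38 above. In nuclease-SMARCA4 it was -0.073, 0.11 and 0.021 (12, 29 and 23 of 38 above), and in nuclease-NT -0.028, -0.015 and 0.044 (13, 15 and 24 of 38 above). YTHDF2-NT 3 and nuclease-SMARCA4 2 were the highest libraries, nuclease-SMARCA4 1 was the lowest, and the YTHDF2-SMARCA4 libraries were the only group with every library below the mean. YTHDF2-NT 2 is also the library with the strongest positive trend of deviations with transcript length. Without it 5 of the 38 genes were called between guides with YTHDF2 (SARS, PHGDH, PCK2, SLC1A5 and ATF4), as were 9.46% of all genes. The same fit called 5 for the difference of guide effects (PHGDH, PCK2, TRIB3, ATF4 and PYCR1, with 8.62% of all genes) and 2 between effectors with the NT guide (TRIB3 and ATF4, with 9.61% of all genes). The part of transcript length in these calls was not tested. The median effective length of the 38 genes was 1897 bases, against 1869 bases for all genes tested, which does not describe the called genes alone. Of these, ATF4 had 1256 bases, PHGDH 1372, PYCR1 1487 and SARS 1626, while SLC1A5 had 1870, PCK2 1897 and TRIB3 2317. In RNA from whole cultures, fewer cells with a transcript and less of it per cell cannot be told apart.

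**Figure D4:**
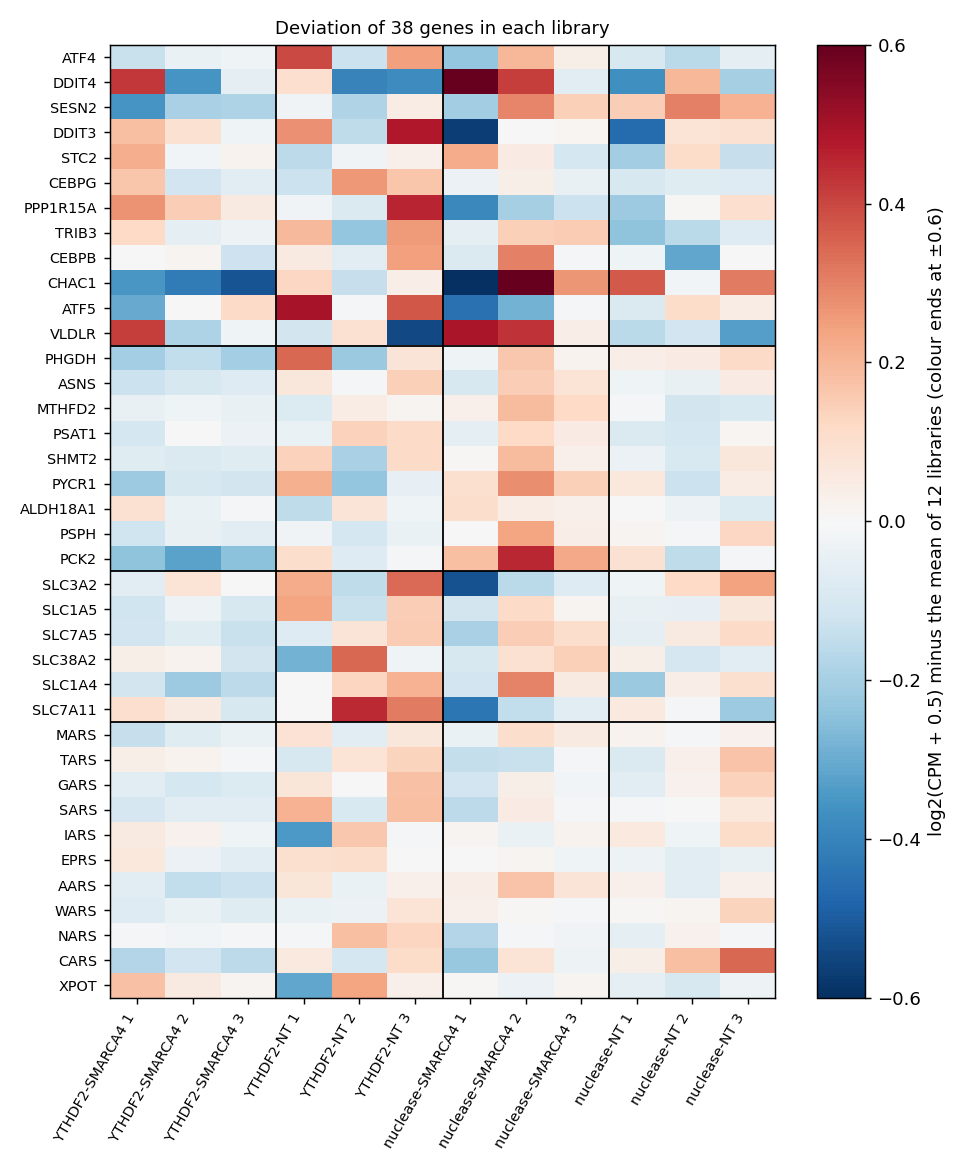
Deviation of each gene (rows, in the order of the TPM plot) in each library (columns, by group) from its mean over 12 libraries, as log2(CPM + 0.5), red above and blue below; the colour ends at ±0.6, which CHAC1 exceeds in nuclease-SMARCA4 1 and 2 and DDIT4 in nuclease-SMARCA4 1. The enzyme block is mostly pale blue across the 3 YTHDF2-SMARCA4 libraries, with PCK2 darkest, and red in nuclease-SMARCA4 2.

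Further genes of the pathway were read from 5 lists, and 0 of their genes were called in any of the 5 comparisons. Of 26 other ATF4 pathway genes, such as ATF3, CTH, GPT2 and NUPR1, 25 passed the filter on low counts. Their median log2 fold change was 0.038 between effectors with the SMARCA4 guide, -0.011 with the NT guide, 0.012 between guides with YTHDF2, -0.021 with nuclease and 0.023 for the difference of guide effects. In the same order, 7, 4, 4, 8 and 7 of 25 had an unadjusted p below 0.05, against 11.5%, 10.9%, 6.82%, 10.9% and 11.1% of all genes. The smallest p belonged to TSC22D3, the glucocorticoid-induced leucine zipper, at 430.4, 507 and 381 CPM with the SMARCA4 guide and 358, 292 and 304 CPM with the NT guide under nuclease (log2 fold change 0.47, SE 0.121, adjusted p = 0.211). The 16 genes of the eIF2 kinases, the eIF2 phosphatase, eIF2 and eIF2B had medians of -0.025 between effectors with the SMARCA4 guide, 0.058 with the NT guide, -0.010 between guides with YTHDF2, 0.022 with nuclease and -0.066 for the difference of guide effects. In that order 0, 1, 2, 1 and 1 of 16 had an unadjusted p below 0.05, to be read against the same shares of all genes. Their smallest p was that of EIF2S2, the beta subunit of eIF2, at 523, 365 and 449.6 CPM with YTHDF2 and 332, 362 and 363 CPM with nuclease under the NT guide (log2 fold change 0.34, SE 0.103, adjusted p = 0.291). Between guides with YTHDF2, 12 of 25 and 10 of 16 of these genes lay below 0, beside 31 of the 38, and the difference between lists was not tested.

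The 13 other cytosolic tRNA synthetases and their scaffold proteins all lay below 0 between guides with YTHDF2, beside 9 of the 11 tRNA genes above and 51.8% of all genes. Their medians were 0.0065 between effectors with the SMARCA4 guide, 0.090 with the NT guide, -0.093 between guides with YTHDF2, -0.0058 with nuclease and -0.068 for the difference of guide effects. Of the 13, 1, 3, 0, 1 and 2 had an unadjusted p below 0.05, against 11.5%, 10.9%, 6.82%, 10.9% and 11.1% of all genes. The smallest p was that of QARS, the glutaminyl enzyme, at 199, 178 and 196 CPM with YTHDF2 and 241, 260.0 and 225 CPM with nuclease under the SMARCA4 guide (log2 fold change -0.34, SE 0.0914, adjusted p = 0.243). The 17 mitochondrial tRNA synthetases had medians of -0.093 between effectors with the SMARCA4 guide, -0.021 with the NT guide, 0.0098 between guides with YTHDF2, 0.033 with nuclease and -0.074 for the difference of guide effects. In each of the 5 comparisons 0 of 17 had an unadjusted p below 0.05. Their smallest p was that of IARS2, the mitochondrial isoleucyl enzyme (log2 fold change 0.14, SE 0.0758, adjusted p = 0.522 between guides with nuclease). The 15 ER chaperones and related genes of the unfolded protein response had, between effectors with the NT guide, a median of 0.20 and 7 of 15 higher at an unadjusted p below 0.05, where 6.5% of all genes were. Their other medians were 0.074 between effectors with the SMARCA4 guide, -0.048 between guides with YTHDF2, 0.089 with nuclease and -0.15 for the difference. HSP90B1, the ER chaperone GRP94, had 1008, 904 and 949.8 CPM with YTHDF2 and 739, 749 and 755 CPM with nuclease under the NT guide, without overlap (log2 fold change 0.35, SE 0.0641, adjusted p = 0.0979). In the same comparison the stress regulators had a median of 0.18, with 9 of 12 above 0 and 3 below, none past the threshold. ATF4 stood at 0.29 and DDIT3 at 0.31, while SESN2, with the smallest p of them, stood at -0.27. Whether chaperones and regulators moved together was not tested.

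The 13 genes whose printed promoters hold TGATGNAA and the 21 with a window but no such match were set side by side as a description. Between guides with YTHDF2, 12 of 13 with the element lay below 0 (median -0.15), as did 15 of 21 without it (median -0.080). Between effectors with the SMARCA4 guide the medians were -0.093 with the element and -0.073 without, and PCK2, with the smallest p, has no match in its window. With the NT guide they were 0.037 with and 0.063 without it, and between guides with nuclease 0.019 with and 0.092 without it. For the difference of guide effects they were -0.14 with the element and -0.15 without. The genes with the element are mostly tRNA genes and those without it mostly regulators and enzymes, so element and role are not separated here.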

How the data were processed

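Per the labels' protocols, libraries were made from polyadenylated RNA of HEK-293T cells (KAPA mRNA HyperPrep). The authors deposited, for each of 12 libraries, estimated counts and TPM per transcript for 200403 targets from kallisto, which the submitters' processing notes name with sleuth and hg38, per the file headers and those notes; versions are not given in the sources used here. Of the target identifiers, 98.6% stand in GENCODE 29, whose gene coordinates (GRCh38) are used. No column belonged to a sample outside the series.

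Estimated counts were summed per gene identifier and rounded to whole numbers. edgeR 4.0.16 (R 4.3.3) fitted all 12 libraries with 1 mean per group, TMM scaling and filterByExpr, leaving 16297 genes, and a gene was called where the quasi-likelihood test gave a p under 0.05 after Benjamini-Hochberg adjustment. CPM are TMM-scaled, deviations use log2(CPM + 0.5), and levels between genes are compared in the deposited TPM only. The 18 pairs of libraries with the same replicate number had correlated deviations of -0.198 to 0.0553, none over 0.1, so numbers were not taken to pair libraries. Promoter windows came from RefSeq (GRCh38.p14). Alternatives were DESeq2 1.42.0 (its Wald test, and its size factors in edgeR), no filter on low counts, the compared groups alone, the replicate number as a block, the length trend removed with and without that block, length-scaled TPM, and each library left out. Only the main edgeR fit was tested on simulated data, for the comparisons other than the difference of guide effects. The simulated counts had no trend with transcript length.

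The 38 genes and the other lists were chosen with earlier results of these data known. Named in each comparison were every called gene, or the gene with the smallest p of each role; ATF4 and DDIT3 always; SMARCA4 as a check; and from each other list the gene with the smallest p. Genes outside that rule (CHAC1, PPP1R15A, PHGDH, MTHFD2, PSPH, PYCR1, ASNS, DDIT4, TRIB3 and SARS) were singled out after their values were seen, and the rest are given so that each gene has its level.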

Additional observations from a re-analysis of the deposited data

Results flagged for a closer look

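Guide effects of PCK2 went in opposite directions with the 2 effectors, with no overlap in either: 48.1, 45.6 and 48.0 CPM in YTHDF2-SMARCA4 against 61.3, 54.0 and 56.7 CPM in YTHDF2-NT, and 64.7, 78.1 and 66.9 CPM in nuclease-SMARCA4 against 60.8, 51.2 and 56.8 CPM in nuclease-NT. The difference of guide effects was -0.59 on the log2 scale (SE 0.130), and edgeR's test of that difference did not pass (adjusted p = 0.222). AARS showed the same arrangement in CPM, with 263, 248 and 251 CPM in YTHDF2-SMARCA4 against 289, 267 and 280.0 CPM in YTHDF2-NT, and 282, 309 and 289 CPM in nuclease-SMARCA4 against 280.1, 262 and 280.1 CPM in nuclease-NT. The difference of guide effects of AARS was -0.23 (SE 0.0904) and did not pass either (adjusted p = 0.412). In the deposited TPM the guide groups of PCK2 stayed apart with both effectors, but those of AARS overlapped with both. AARS had 114, 93.6 and 95.3 TPM in YTHDF2-SMARCA4 against 86.4, 112.3 and 109.8 TPM in YTHDF2-NT. With nuclease it had 106.4, 109.1 and 115.5 TPM with the SMARCA4 guide against 122, 114.7 and 114.5 TPM with the NT guide. Other statements of no overlap also rest on CPM. In TPM GARS, SLC1A4 and ASNS overlapped between guides with YTHDF2, and MTHFD2 and TRIB3 between guides with nuclease. Between effectors, EPRS overlapped with the NT guide and PSPH with the SMARCA4 guide. SLC3A2 and VLDLR stayed apart between guides with nuclease. SESN2 (NT guide) and PPP1R15A, PHGDH and PYCR1 (SMARCA4 guide) stayed apart between effectors.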

How the results depend on the processing

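Over 20 other settings per comparison (19 for the difference of guide effects) and 1 chosen after seeing the data (YTHDF2-NT 1 and 2 both left out), 88 of 104 counts of called genes stayed at 0 of 38 and 16 moved. The medians of the 38 genes moved beyond their spread in 2 of 104 cases, and of the values of single named genes 607 kept direction and side of the threshold (with a gene left without an adjusted p by DESeq2 counted as not called), 23 passed it and 16 changed sign.

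For YTHDF2 against nuclease with the SMARCA4 guide, DESeq2's Wald test (0.859% of all genes called), the length trend removed (0.0798%), and the length trend removed with the replicate block (0.117%) each called 1 of the 38 (PCK2). The fit without a filter (0.856% of all genes), the fit of the compared groups alone (4.25%), and the fit without YTHDF2-NT 1 and 2 (4.05%) called 5 each. With single libraries left out it was 0 to 1 (at most 0.419% of all genes), and the median ran from -0.15 (without nuclease-SMARCA4 1) to -0.042. Between effectors with the NT guide, leaving out libraries gave 0 to 2 (9.61% of all genes for the 2). Between guides with YTHDF2, leaving out single libraries gave 0 to 5 (9.46% for the 5). The median was -0.21 without YTHDF2-NT 1 and 2, where YTHDF2-NT 3 alone stood for its group. That library had the highest median deviation of the 38 genes among the 12 libraries (0.11). Between guides with nuclease, the fit without a filter called 2 (DDIT4 and SLC3A2; 0.963% of all genes), the length trend removed with the replicate block 1 (SLC3A2, -0.42, adjusted p = 0.0499; 0.38%), and the fit without YTHDF2-NT 1 and 2 called 3 (MTHFD2, PCK2 and SLC3A2; 4.01%), and leaving out single libraries 0, with a median between -0.0062 and 0.077. For the difference of guide effects, DESeq2 (0.233% of all genes) and the fit without a filter (1.43%) called 1 each (PCK2), and leaving out libraries 0 to 5 (8.62% for the 5). The cause of these shifts was not tested. By its design the fit of compared groups uses fewer libraries.

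Sign changes were small and none passed the threshold. DDIT3 turned to 0.0057 and 0.084 between guides with nuclease (without nuclease-NT 2 and nuclease-SMARCA4 1, in a range from -0.25) and to 0.0040 with YTHDF2 (without YTHDF2-NT 3, in a range from -0.30 over single libraries left out, and -0.40 without YTHDF2-NT 1 and 2). For the difference of guide effects it turned to 0.12 with the length trend removed, 0.13 with the replicate block as well, 0.0049 with length-scaled TPM, and to between 0.0043 and 0.12 without each of 5 single libraries (nuclease-NT 1, nuclease-SMARCA4 2 or 3, YTHDF2-NT 3, YTHDF2-SMARCA4 3), in a range from -0.23 over single libraries left out, with -0.32 without YTHDF2-NT 1 and 2. SMARCA4 between guides with nuclease turned to 0.0032 without a filter and to 0.0033, 0.013 and 0.042 without nuclease-NT 3, nuclease-NT 2 and nuclease-SMARCA4 3, in a range from -0.051. ATF4 between effectors with the SMARCA4 guide turned to 0.026 without nuclease-SMARCA4 2, in a range from -0.19. The replicate block alone called 0 of the 38 in all 5 comparisons; with the SMARCA4 guide it left a median of -0.082, with PCK2 not called. The replicate numbers did not pair the libraries, so the block is no paired design. Estimated counts of 9207196 or more per library leave VLDLR, CHAC1 and ATF5, the lowest of the 38 in mean CPM, with the widest relative spread of counting.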
